A study of Homo sapiens with 4 samples.

Results

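The genes described here are those that hold epithelial cells together or mark a mesenchymal state: the classical cadherins CDH1 and CDH2, the tight junction genes CLDN1, OCLN and TJP1, the simple-epithelium keratins KRT8, KRT18 and KRT19, the intermediate filament gene VIM and the matrix gene FN1. They were chosen by symbol, 10 genes in all, and 9 of them had a row in the deposited count table of 14540 RefSeq mRNA rows. CDH1 was not analysed here. The 9 genes had 11 rows, since KRT8 and KRT18 had 2 rows each. For each gene the row with the highest summed count over the 4 libraries is its main row.

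RNA was sequenced from PLC/PRF/5, an established line of human hepatocellular carcinoma cells. The control libraries (PLC-NC, 2 libraries) were compared with libraries of cells in which USP22, a ubiquitin-specific protease of the SAGA coactivator complex, was knocked down through a lentivirus (PLC-shUSP22, 2 libraries). Cells of both groups were grown in high-glucose DMEM and kept for 48 h in 1% oxygen and 5% carbon dioxide, so every value below is from hypoxic cells. The labels do not say that the replicates were separate cultures, nor how many hairpins were used. The p-values set a difference against the spread between these libraries, moderated across rows, and that spread may be technical.

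Epithelial cells are joined by adherens junctions, built on cadherins whose tails bind catenins, by tight junctions, in which claudins and occludin seal the space between cells above a scaffold of ZO proteins, and by desmosomes, which anchor keratin filaments. Keratins form obligate pairs of a type II and a type I chain, and KRT8 with KRT18 is the pair of hepatocytes, while KRT19 and KRT7 are chains of bile duct cells. In an epithelial-mesenchymal transition, cadherin switching from CDH1 to CDH2, loss of junction genes and gain of vimentin and fibronectin are the usual markers, and repressors such as SNAI1 and the ZEB proteins bind E-boxes in junction gene promoters.

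Library totals ranged from 15027209 to 17194929 counts. The USP22 row fell from 2937 and 2573 CPM (the count scaled to the TMM-normalized depth of its library) in control to 360 and 447 CPM in the knockdowns, a log2 fold change of −2.77 ± 0.17 (SE; adjusted p = 1.36e-06). Of the 8 hepatocyte markers, TF, APOB, AFP and ALB were abundant, and the summed CPM of the 8 was 27001 to 29145 in the controls and 33629 to 42960 in the knockdowns. AFP and APOB, which rose, were the 2 of the 8 that passed the test. The sum followed APOB, whose mean went from 10211 CPM in control to 22078 CPM in the knockdowns. ALB, APOA1, TTR, SERPINA1 and TF had negative log2 fold changes (−0.18, −0.11, −0.61, −0.10 and −0.18) and did not pass. The HNF4A row, 1 of 10 RefSeq mRNAs of that gene, had 1, 5, 23 and 18 counts.

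Of the 9 genes with a row, 8 passed the filter on low counts, and TJP1 did not. KRT18 rose in the knockdown, 0 genes fell and 7 did not pass edgeR's quasi-likelihood test. At an unadjusted p under 0.05 in that test 3 were higher (KRT8, KRT18 and FN1) and 0 lower, and DESeq2 called 1 higher and 0 lower. Over all 12337 tested rows 8.49% were called higher and 10.2% lower (18.7% in either direction), so the count of 1 in 8 is near the background. The log2 fold change was above 0 for all 8 tested genes, with a median of 0.44, against 49.8% of 10777 tested genes and a median of 0.00 over them. The filter let a gene pass through the group in which it is high, and the members were chosen with earlier results known, so these signs are given as a description. Both knockdown libraries lay above both control libraries for 4 of the 8 (KRT8, KRT18, OCLN and FN1), against 29.3% of all tested rows. Both lay below for TJP1 alone, which was not tested, against 30.3% of tested rows. The count of genes called higher was 4 without knockdown replicate 2 (KRT8, KRT18, KRT19 and FN1) and 2 without knockdown replicate 1 (CLDN1 and KRT18). Without control replicate 1 it was 1, and that gene was FN1. In the authors' deposited table the main rows of KRT18 and KRT8 have a q-value under 0.05, both with a positive log2 fold change. Over all of its rows 10.7% have such a q-value with a positive sign and 11.4% with a negative sign.

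**Figure D1:**
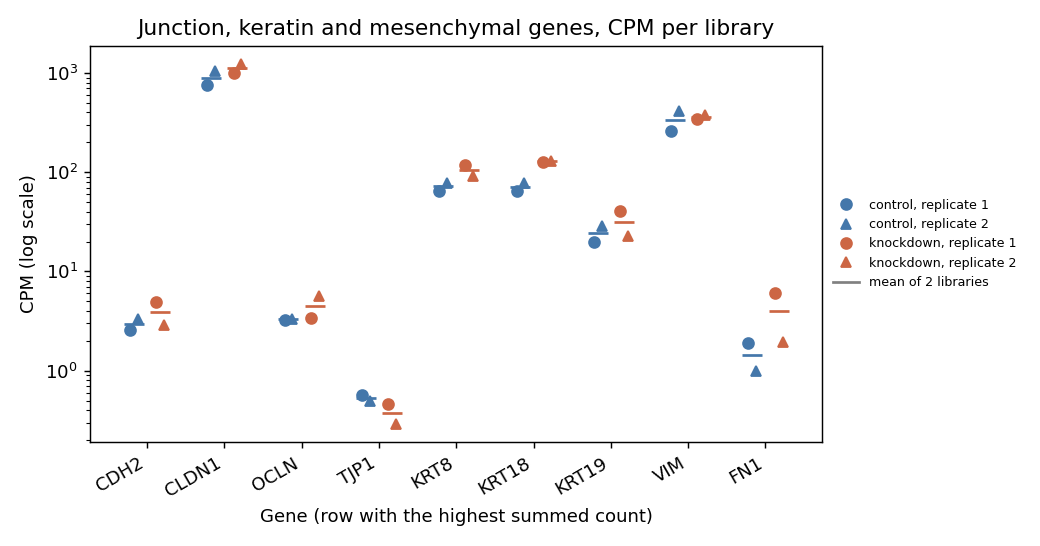
CPM per library on a log scale for the main row of each of the 9 genes with a row, with control in blue, knockdown in orange, circles for replicate 1, triangles for replicate 2 and a short line at the mean of the 2 libraries of a group. CLDN1 lies between 755 and 1234 CPM, TJP1 below 1 CPM, and the KRT18 libraries of the groups are apart while those of VIM interleave.

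The cadherin switch could be followed on the CDH2 side alone. CDH2, the N-cadherin of neural and mesenchymal cells that hepatocytes also carry, had 41 and 53 counts in the controls and 75 and 50 counts in the knockdowns. In CPM these are 2.59 and 3.28 against 4.96 and 2.91, so the groups overlapped, and the higher knockdown value came from replicate 1. The log2 fold change was 0.42 ± 0.43 with a 95% confidence interval of −0.52 to 1.35 (adjusted p = 0.558), which leaves room for a change in either direction. The row is 1 of 2 RefSeq mRNAs of the gene, and rows of genes with several accessions can hold only part of the reads of the gene.

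CLDN1, the claudin that seals the tight junction strands of many epithelia, was the most abundant of the genes per length among the 3 with a single RefSeq mRNA. Its 11953 and 16824 control counts gave 217 and 299 CPM per kb, and its 15068 and 21188 knockdown counts 286 and 354 CPM per kb. VIM followed with 122 and 196 CPM per kb in the controls and 161 and 176 CPM per kb in the knockdowns. KRT19 was far below both, at 14.1 and 20.9 against 29.0 and 16.2 CPM per kb. The CLDN1 and VIM ranges lay apart in each group, and those of KRT19 lay apart from both. Per row, CLDN1 had 898 ± 202 CPM in the controls and 1115 ± 168 CPM after knockdown (SD, n = 2), a log2 fold change of 0.31 ± 0.18 that did not pass (adjusted p = 0.256, 95% confidence interval −0.07 to 0.70). The groups overlapped, because knockdown replicate 1, at 996 CPM, lay under control replicate 2, at 1040 CPM. Without knockdown replicate 1 the log2 fold change was 0.50 (adjusted p = 0.00812, with 9 alternatives spanning 0.00812 to 0.848).

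OCLN, the tight junction membrane protein occludin, and TJP1, the ZO-1 scaffold that ties claudins and occludin to actin, had few counts. OCLN had 51 and 54 counts in the controls and 51 and 96 in the knockdowns, or 3.22 and 3.34 against 3.37 and 5.59 CPM. Its groups were barely apart, with knockdown replicate 2 the higher library, and the log2 fold change of 0.45 ± 0.41 did not pass (adjusted p = 0.494, 95% confidence interval −0.43 to 1.33). Without knockdown replicate 2 it was 0.05. TJP1 had 9 and 8 counts in the controls and 7 and 5 in the knockdowns and was too low to be tested. These rows are 1 of 6 RefSeq mRNAs of OCLN and 1 of 9 of TJP1, so they say little on the total RNA of either gene, and OCLN also has 1 pseudogene of its name in GENCODE.

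The upstream promoter windows of the tight junction genes are shown because claudin and occludin genes are known targets of E-box-binding repressors, and because all cells here were hypoxic. Each is the 250 bases before a RefSeq transcript start in GRCh38.p14 (not the authors' build), written 5′ to 3′ on the strand of the gene, with every match to the searched motifs in capitals. The first motif was the E-box CAGGTG, searched on both strands (on the other strand it reads CACCTG). The second was the core of the hypoxia response element, which is ACGTG in one form and, in a further form with another first base, GCGTG, again on both strands. No match of one motif overlapped a match of the other in these windows. CLDN1 lies on the minus strand at chr3:190322447-190322696, OCLN on the plus strand at chr5:69492297-69492546 and TJP1 on the minus strand at chr15:29969050-29969299. The table holds 2 OCLN windows, which both have an E-box, and 4 TJP1 windows, of which the one shown is the only one with an E-box. GENCODE transcripts held bases following the start for the CLDN1 and OCLN windows and the other TJP1 windows. They did not for the TJP1 window shown, so its distances rest on the RefSeq start alone.
CLDN1: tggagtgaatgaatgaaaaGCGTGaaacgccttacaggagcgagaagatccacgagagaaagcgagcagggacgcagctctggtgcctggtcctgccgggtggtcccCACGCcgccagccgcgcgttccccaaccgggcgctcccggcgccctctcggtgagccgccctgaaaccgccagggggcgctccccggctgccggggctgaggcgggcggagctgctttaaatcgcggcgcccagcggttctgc
OCLN: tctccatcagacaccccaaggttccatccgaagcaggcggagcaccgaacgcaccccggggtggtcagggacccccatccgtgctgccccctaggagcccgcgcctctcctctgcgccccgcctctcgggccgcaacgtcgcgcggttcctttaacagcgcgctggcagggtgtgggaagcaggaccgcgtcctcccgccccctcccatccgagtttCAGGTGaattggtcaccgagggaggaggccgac
TJP1: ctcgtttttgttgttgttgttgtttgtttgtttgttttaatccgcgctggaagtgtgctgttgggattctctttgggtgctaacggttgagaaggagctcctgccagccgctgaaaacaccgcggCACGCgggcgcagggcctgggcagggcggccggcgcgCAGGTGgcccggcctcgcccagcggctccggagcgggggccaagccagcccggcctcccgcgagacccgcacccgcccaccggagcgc
The OCLN window has the E-box CAGGTG with its first base 33 bases before the start, and the TJP1 window has it 88 bases before the start, together with a hypoxia core on the other strand, its first base 125 bases before it. CLDN1 has no E-box of these letters in the window. It has the hypoxia core GCGTG 231 bases before the start and, on the other strand, where it reads CACGC, a further match 143 bases before it. Of the member genes 7 had windows in the RefSeq table, 12 windows in all since some genes have several starts. An E-box of these letters was in 3 of the 12 (2 OCLN starts and 1 TJP1 start) and in 17.5% of all 35116 windows. A hypoxia core was in 5 of the 12 and in 43.2% of all windows. A match of so few letters describes the sequence and not binding.

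KRT18, the type I chain of the hepatocyte keratin pair, rose from 1022 and 1259 counts in control to 1934 and 2237 counts in the knockdowns. In CPM these are 64.5 and 77.9 against 128 and 130, so the libraries of the groups were well apart and the knockdown libraries nearly equal. The change from 71.2 ± 9.42 to 129 ± 1.70 CPM (SD, n = 2) was 1.81-fold (1.60 to 2.05 within 1 SE), a log2 fold change of 0.86 ± 0.18 with adjusted p = 0.00485. The call disappeared without control replicate 1 (0.73, adjusted p = 0.0704, with 9 alternatives spanning 6.52e-07 to 0.0704). For this row 0.88 is listed as log2 fold change in the authors' deposited table, with q = 4.85e-07. Its second row, NM_199187.1, had 45, 40, 43 and 142 counts, so that knockdown replicate 2 alone was high, and did not pass (1.07 ± 0.48, adjusted p = 0.149). With the rows of a gene summed, KRT18 rose by 0.88 (adjusted p = 0.00329).

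KRT8, the type II partner, moved in the same direction by less. Its main row had 1030 and 1272 counts in the controls and 1804 and 1565 in the knockdowns, or 65.0 and 78.7 against 119 and 91.1 CPM. All knockdown values were above all control values, but the log2 fold change of 0.55 ± 0.19 did not pass (adjusted p = 0.0669, 95% confidence interval 0.13 to 0.97). It passed without knockdown replicate 2 (0.74, adjusted p = 0.00462, with 9 alternatives spanning 0.0041 to 0.378). In the authors' deposited table it is listed with 0.57 and q = 0.0112. Its second row, NM_001256282.1, had 29 and 23 counts in control against 10 and 17 in the knockdowns, which is the opposite order, and did not pass (−0.97 ± 0.66, adjusted p = 0.35).

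The KRT8 and KRT18 main rows had nearly equal counts in the controls, and KRT8 had fewer than KRT18 in the knockdowns. Their count ratio, KRT8 over KRT18, was 1.01 in each control library, 0.933 in knockdown replicate 1 and 0.70 in knockdown replicate 2. Summed, the main rows had 130 and 157 CPM in the controls and 247 and 221 CPM in the knockdowns. The genes are neighbours and overlap on opposite strands in GENCODE v29, and the library kit does not mark strand, so reads in the overlap cannot be told apart. GENCODE also names 50 pseudogenes after KRT8 and 68 after KRT18, and the sources used here do not say how the authors' counting dealt with reads shared with them. The values of both genes are uncertain to that extent.

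KRT19, the smallest type I keratin and a marker of bile duct and progenitor cells, had 19.6 and 29.0 CPM in the controls and 40.3 and 22.5 CPM in the knockdowns. GENCODE names 5 pseudogenes after KRT19. Control replicate 2 lay above knockdown replicate 2, and the log2 fold change of 0.37 ± 0.29 did not pass (adjusted p = 0.425, 95% confidence interval −0.26 to 1.00). Its direction rested on knockdown replicate 1: the log2 fold change was −0.068 without that library (adjusted p = 0.921), and leaving out knockdown replicate 2 gave 0.74 (adjusted p = 0.0356). Of the other 5 cholangiocyte markers, CFTR, a chloride channel, rose (1.96, adjusted p = 0.000192). KRT7 and EPCAM fell, and SOX9 did not pass. The summed CPM of the 6 markers was 145 to 199 in the controls and 124 to 217 in the knockdowns, so the groups overlapped. The RNA was from an established line, and whether cells of bile duct character had a part in the keratin values was not tested.

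**Figure D2:**
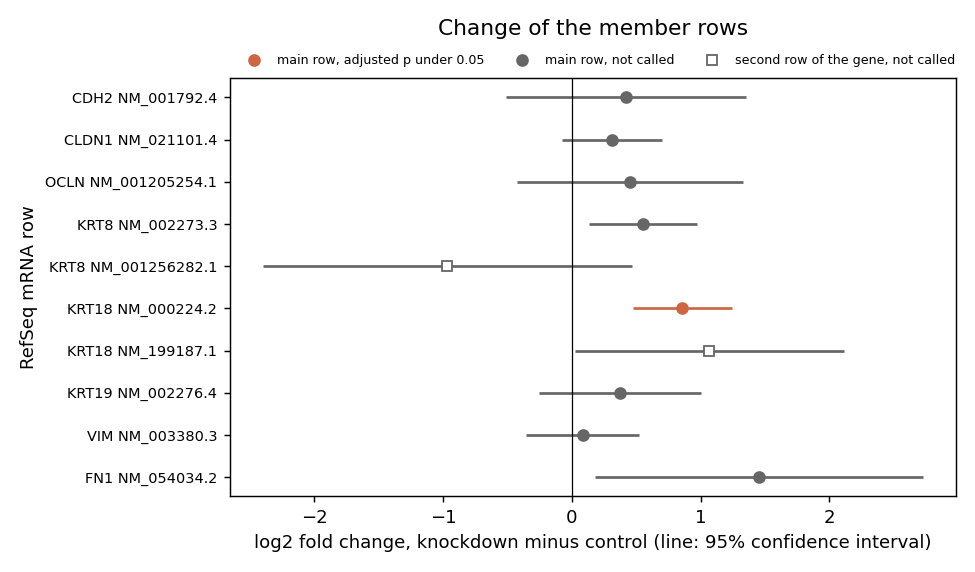
Log2 fold change, knockdown minus control, of the 10 tested rows of the members, with the 95% confidence interval as a line, filled circles for main rows and open squares for second rows. The KRT18 main row, in orange, is the row with adjusted p under 0.05, and the intervals of KRT8, FN1 and the second KRT18 row also lie above 0 before adjustment.

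VIM, the vimentin of mesenchymal intermediate filaments, was abundant in these epithelial tumour cells. It had 4121 and 6758 counts in the controls and 5192 and 6449 in the knockdowns, or 260 and 418 against 343 and 376 CPM. Both knockdown libraries lay between the control libraries, and the control libraries were further apart than the group means of 339 ± 112 and 359 ± 22.8 CPM. The log2 fold change of 0.08 ± 0.20 did not pass (adjusted p = 0.825), and its 95% confidence interval was −0.35 to 0.52. Without control replicate 1 it was −0.21 (adjusted p = 0.654) and likewise without control replicate 2 it was 0.48. Among fibroblast and stellate cell markers control replicate 2, the library with the highest VIM value, was also the highest for COL1A1 (76, 198, 136 and 71 counts in control 1, control 2, knockdown 1 and knockdown 2), COL1A2 (1, 53, 0 and 0 counts) and LUM (12, 67, 27 and 16 counts). PDGFRB, the other marker with a row of the 6 listed, was lowest in control replicate 2, with 14.8, 12.0, 13.0 and 14.0 CPM in the same order. The summed CPM of the 4 was 20.5 and 31.7 in the controls and 23.8 and 19.0 in the knockdowns, and their part in the VIM values was not tested. VIM also overlaps 2 genes annotated on its opposite strand, AL133415.1 and VIM-AS1, and reads in the overlap cannot be told apart.

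FN1, the matrix glycoprotein fibronectin that liver cells secrete into plasma, had 30 and 16 counts in the controls and 91 and 33 in the knockdowns on its row, NM_054034.2. In CPM these are 1.89 and 0.989 against 6.02 and 1.92, so that knockdown replicate 1 was high and knockdown replicate 2 close to control replicate 1. The log2 fold change of 1.45 ± 0.59 was the largest of the members and did not pass (adjusted p = 0.109, 95% confidence interval 0.18 to 2.72). It was 0.45 (adjusted p = 0.793) without knockdown replicate 1, 2.07 (adjusted p = 0.00471) without knockdown replicate 2 and 1.99 (adjusted p = 0.0172) without control replicate 1. The gene has 18 RefSeq mRNAs and this row is 1 of them, so the low counts say little on total fibronectin RNA.

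Other genes of the same structures were taken from 8 lists, from which the members were left out. Of 139 listed genes 101 had a row and 91 were tested. Of these 9 rose, 18 fell and 64 did not pass, or 9.89% higher and 19.8% lower, beside 9.08% higher and 11.1% lower (20.1% in either direction) over all genes with 1 row per gene. Their median log2 fold change was −0.15, against 0.00 over all genes tested. Without control replicate 2 the number that fell was 11. In bulk RNA, fewer cells that express a gene and less RNA per cell cannot be told apart.

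**Figure D3:**
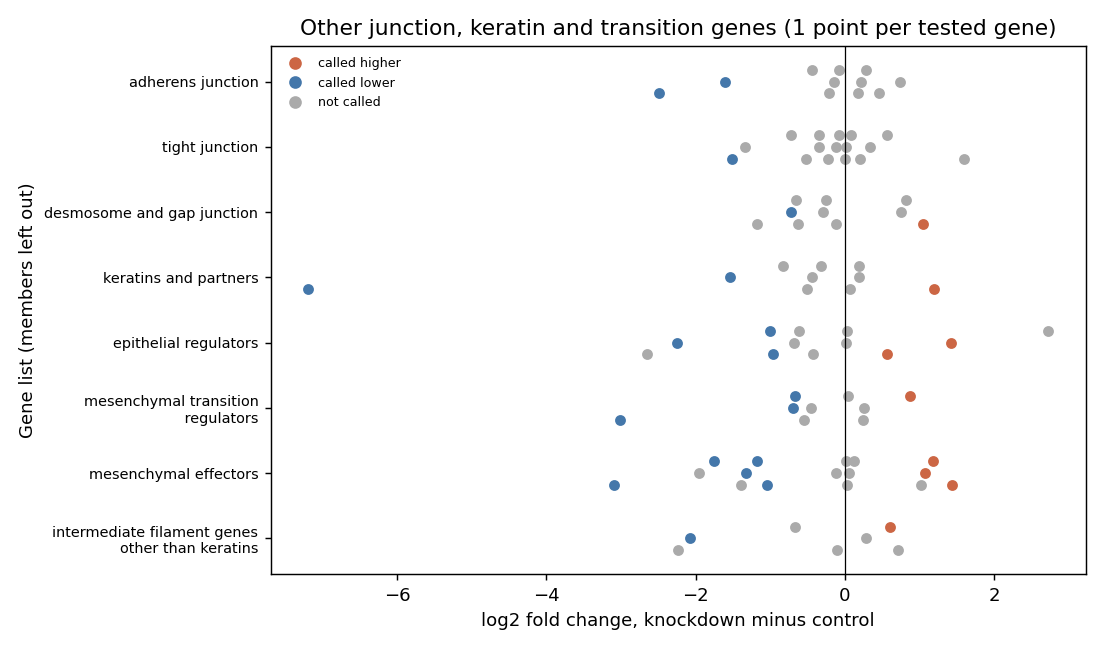
Log2 fold change, knockdown minus control, of each tested gene of the 8 lists, 1 point per gene, in orange where called higher, in blue where called lower and in grey where not called; the vertical spread within a list only separates points. KRT17, at −7.19, lies farthest from 0, and calls in both directions occur in 6 of the 8 lists.

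Among adherens junction genes 0 of 11 tested rose and 2 (18.2%) fell, beside 9.08% higher and 11.1% lower over all genes. Counts this small are near that background. The median was −0.08. By edgeR at an unadjusted p under 0.05, and by DESeq2, 0 were also higher. NECTIN1, an immunoglobulin-like adhesion molecule, fell from 39.0 and 39.8 CPM to 16.1 and 9.67 CPM (−1.61 ± 0.27, adjusted p = 0.00119). The CTNNA1 row, chosen after its values were seen and 1 of 37 RefSeq mRNAs of that alpha-catenin gene, had 29 and 68 counts against 11 and 6, and its call disappeared without control replicate 2 (adjusted p = 0.205) and likewise without knockdown replicate 2 (adjusted p = 0.0674). CTNNB1, JUP and VCL were among the 9 that did not pass.

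In the tight junction list 0 of 16 tested rose and 1 (6.25%) fell, beside 9.08% higher and 11.1% lower over all genes. These counts too are near that background. The median was −0.10, and again 0 were higher by edgeR at an unadjusted p under 0.05 and by DESeq2. The gene that fell was CLDN3, a claudin named after its values were seen, with 193 and 146 counts in control against 73 and 45 in the knockdowns (−1.51 ± 0.37, adjusted p = 0.0122). Per length CLDN3 had 8.33 ± 1.75 CPM per kb in control, against 258 ± 58.0 CPM per kb for CLDN1. CGN, the cytoplasmic plaque protein cingulin, had 242 CPM in the controls and 307 CPM after knockdown and did not pass (0.34 ± 0.16, adjusted p = 0.159), nor did the polarity scaffold PATJ (−0.08 ± 0.19, adjusted p = 0.815).

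Of the desmosome and gap junction genes 1 of 10 tested rose and 1 fell (10% each), beside 9.08% and 11.1% over all genes. Their median was −0.27. GJA1, the connexin 43 of gap junctions, rose from 200 and 303 CPM to 577 and 462 CPM (1.05 ± 0.20, adjusted p = 0.00325). DSG2, the desmoglein of simple epithelia, fell from 132 to 79.9 CPM (−0.72 ± 0.21, adjusted p = 0.0288), a call that disappeared without control replicate 2 (adjusted p = 0.115) and likewise without knockdown replicate 2 (adjusted p = 0.167). The desmosomal plaque gene DSP did not pass at 172 CPM in the controls and 157 CPM after knockdown.

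Keratins other than the members moved in both directions. Of 10 tested keratins and keratin partners 1 rose (10%) and 2 fell (20%), beside 9.08% and 11.1% over all genes. Their median was −0.38. KRT17, a type I keratin of stressed and basal epithelia, was chosen after its values were seen, since its mean was under the 10 CPM set for named genes. It had 183 and 289 counts in the controls and 2 and 1 in the knockdowns (log2 fold change −7.19 ± 0.55, adjusted p = 5.18e-06). With 3 counts in the knockdown group, the ratio of control to knockdown counts scaled by library size was 159, with an exact 95% interval of 54.0 to 773 for counting error alone. GENCODE names 8 pseudogenes after KRT17. KRT7, a type II chain of bile duct cells also named with its values known, fell from 7.82 ± 2.49 to 2.70 ± 1.51 CPM (−1.54 ± 0.44, adjusted p = 0.0266). KRT7 overlaps KRT7-AS and KRT87P on the opposite strand and KRT86 on its own strand, and reads in the overlaps may be shared. Its log2 fold change was −1.16 without control replicate 2 (adjusted p = 0.0952), −1.04 without knockdown replicate 2 (adjusted p = 0.113) and −2.22 without knockdown replicate 1. KRT23, a type I keratin, rose from 7.83 and 10.3 CPM to 16.6 and 24.8 CPM (1.19 ± 0.29, adjusted p = 0.0118), a call that disappeared without control replicate 1 (adjusted p = 0.0566) and likewise without knockdown replicate 2 (adjusted p = 0.063).

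**Figure D4:**
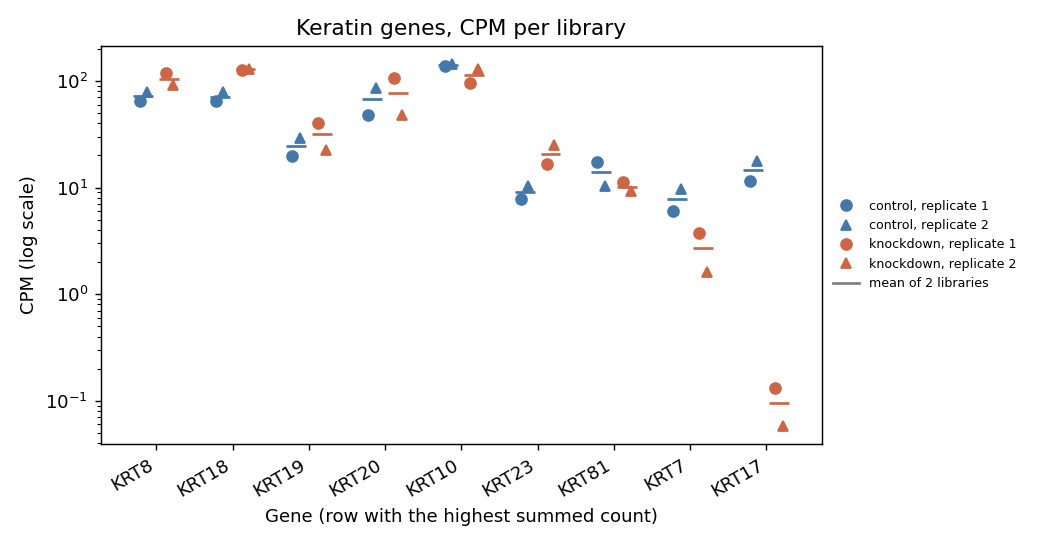
CPM per library on a log scale for 9 keratin genes, with control in blue, knockdown in orange, circles for replicate 1, triangles for replicate 2 and a short line at the mean of the 2 libraries. The knockdown libraries lie above the control libraries for KRT8, KRT18 and KRT23, below them for KRT10, KRT7 and KRT17, and overlap for KRT19, KRT20 and KRT81.

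Among listed keratins with a single RefSeq mRNA, levels per length could be ordered. In control cells KRT20, an intestinal type keratin, had 38.8 ± 15.6 CPM per kb, KRT19 17.5 ± 4.80 and KRT17 9.70 ± 2.94, and the SDs of KRT17 and of KRT81, at 7.19 ± 2.56 CPM per kb, overlapped. In knockdown cells KRT20 had 44.3 ± 23.7 CPM per kb and KRT19 22.6 ± 9.05, which overlapped in spread, and KRT17 was last of these at 0.0628 ± 0.0345. KRT20 did not pass the test of its change (adjusted p = 0.746).

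Regulators of the epithelial state changed in part. Of 12 tested 2 rose (16.7%) and 3 fell (25%), beside 9.08% and 11.1% over all genes. Their median was −0.52. FOXA1, a pioneer factor of endoderm and liver, rose from 42.4 and 47.5 CPM to 78.4 and 163 CPM (1.43 ± 0.27, adjusted p = 0.00312, and 0.81 without knockdown replicate 2). ESRP2, a splicing regulator of epithelial isoforms, rose by 0.56 (adjusted p = 0.0343), but not without control replicate 1, control replicate 2 or knockdown replicate 2 (adjusted p = 0.182, 0.109 and 0.163). SPINT2, an inhibitor of membrane serine proteases, fell from 165 and 160 CPM to 93.3 and 68.4 CPM (−1.01 ± 0.19, adjusted p = 0.00267), and CDS1, an enzyme of phospholipid synthesis, fell by 0.96 in log2 units (adjusted p = 0.005). EPCAM, the epithelial adhesion molecule, named after its values were seen, had 25, 62, 11 and 7 counts (adjusted p = 0.0352), and its call disappeared without control replicate 2 (−1.46 against −2.25, adjusted p = 0.334) and likewise without knockdown replicate 2 (adjusted p = 0.123).

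The transition regulators held 9 tested genes, of which 1 rose (11.1%) and 3 fell (33.3%), beside 9.08% and 11.1% over all genes. Their median was −0.45. SNAI1, the repressor of junction genes, had 604 and 608 counts in the controls and 513 and 369 in the knockdowns and did not pass (−0.45 ± 0.24, adjusted p = 0.224), although both knockdown values lay below both control values. It passed without knockdown replicate 1 (−0.78, adjusted p = 0.0294). SNAI2, TWIST1, ZEB1 and ZEB2 were not analysed here. AXL, a receptor tyrosine kinase named with its values known, fell from 264 and 303 counts to 50 and 19 counts (−3.02 ± 0.42, adjusted p = 0.000347), with −3.95 without knockdown replicate 1 and −2.41 without knockdown replicate 2. TGFB1, the ligand, fell by 0.67 in log2 units (adjusted p = 0.0138) and SMAD3, a transducer of its signal, by 0.70 (adjusted p = 0.0147). Both calls disappeared without control replicate 1 (adjusted p = 0.0778 and 0.0951) and likewise without control replicate 2 (adjusted p = 0.106 and 0.0807), while the log2 fold changes stayed near these values, at −0.68 and −0.63 for TGFB1 and −0.68 and −0.69 for SMAD3. TCF3, an E-box-binding factor, rose by 0.87 (adjusted p = 0.0192), a call that disappeared without control replicate 1 (adjusted p = 0.176).

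The list of mesenchymal effector genes gave the most calls of the 8 lists. Of 16 tested 3 rose (18.75%) and 5 fell (31.25%), with a median of −0.05. Over all genes with 1 row per gene 9.08% were called higher and 11.1% lower. ITGA5, the fibronectin receptor chain, fell from 3345 and 3386 CPM to 1393 and 1290 CPM (−1.33 ± 0.14, adjusted p = 5.6e-05). SDC4, a syndecan of focal adhesions, fell from 728 ± 123 to 323 ± 12.0 CPM (adjusted p = 0.000403). LGALS1, the secreted lectin galectin-1, rose from 83.9 and 115 CPM to 225 CPM in each knockdown library (1.17 ± 0.18, adjusted p = 0.000871). CCN2, a matricellular protein, rose by 1.07 (adjusted p = 0.0101). SDC1, which the list also holds although it is a syndecan of epithelial cells, rose by 1.43 (adjusted p = 0.00285). CCN1 and TAGLN, named after their values were seen, also fell. The CCN1 call disappeared without control replicate 2 (−0.51 against −1.04, adjusted p = 0.263). TAGLN, with 36 and 62 counts against 16 and 13, passed narrowly (adjusted p = 0.0469) and not by DESeq2 (adjusted p = 0.0671), without the filter on low counts (adjusted p = 0.0505), or without control replicate 2, knockdown replicate 1 or knockdown replicate 2 (adjusted p = 0.269, 0.0556 and 0.178).

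Among intermediate filament genes other than keratins and VIM, 1 of 7 tested rose and 1 fell, with a median of −0.10. That is 14.3% each way, beside 9.08% higher and 11.1% lower over all genes. INA, a neuronal intermediate filament gene, fell from 588 and 855 counts to 164 and 181 counts (−2.07 ± 0.25, adjusted p = 0.000127). LMNB2, a lamin of the nuclear envelope, rose by 0.61 (adjusted p = 0.0241), a call that disappeared without control replicate 1 (adjusted p = 0.203) and likewise without knockdown replicate 2 (adjusted p = 0.0717).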

How the data were processed

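Raw counts of 4 libraries (2 control, 2 knockdown, grouped by sample title) were deposited by the authors in 1 table with a row per RefSeq mRNA accession. Per the submitters' processing notes, bcl2fastq, HISAT2 2.1.0, HTSeq and hg19 were used. How reads shared by transcripts were counted is not stated in these sources. The authors deposited in the same table a log2 fold change, a p-value and a q-value, and the tool behind them is likewise not stated. Per the labels' protocols the library kit was NEBNext Ultra RNA, which does not mark strand.

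Rows were filtered with filterByExpr of edgeR 4.0.16 (R 4.3.3, minimum count 10), which left 12337 of 14540 rows (2203 removed), and normalized by TMM (factors 0.979 to 1.01). The contrast of knockdown with control used edgeR's quasi-likelihood test and no covariate, with Benjamini-Hochberg adjustment over all tested rows and a threshold of 0.05. The common biological coefficient of variation was 22.1%. SEs were taken as the absolute log2 fold change over the root of the F statistic, and 95% confidence intervals use 13.2 degrees of freedom. CPM values are counts scaled to the normalized depth of a library, and CPM per kb divides by the GENCODE v29 transcript length. Symbols of list genes came from RefSeq accessions (GRCh38.p14), which matched 98.5% of rows. The fit was tested on simulated data.

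The members and lists were chosen with earlier results of these data known. List genes were named by a rule: up to 3 per direction and list, called, with a mean of at least 10 CPM, by adjusted p, and the 2 most abundant genes where a list had none. Some listed genes enter the counts of a list and are not reported here by name. AFP, APOB and other markers are named from fixed marker lists. DESeq2 1.42.0 and the other alternatives are described in the closing section. Libraries within a group were not duplicates, since they differed beyond counting noise (chi-square per degree of freedom 17.0 for control and 31.3 for knockdown).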

Additional observations from a re-analysis of the deposited data

How the results depend on the processing

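The alternatives were DESeq2 size factors, no filter beyond 1 count, the replicate number as a block, DESeq2, accession rows summed per gene and leaving out each library, after which a lone library is assumed to vary like the other group. The number of members called lower was 0 in all 9. The number called higher was 1 in the main analysis, 4 with the replicate block and 1 to 4 when a library was left out. Rows called higher numbered 1047, then 1672 with the replicate block and 685 to 1340 when a library was left out, and rows called lower stayed within 1.5 times of 1257. List genes called higher numbered 9, then 15 with the replicate block and 6 to 10 when a library was left out, and those called lower numbered 18, then 11 to 21 when a library was left out. Direction reversed for KRT19 (−0.068 without knockdown replicate 1, with −0.068 to 0.74 when a library was left out), VIM (−0.21 without control replicate 1, with −0.21 to 0.48) and PATJ (0.042 without control replicate 1 and 0.12 without knockdown replicate 2, with −0.28 to 0.12), none of which passed in the main analysis. With the replicate block CLDN1 (adjusted p = 0.0356), KRT8 (0.0041), FN1 (0.0371) and CGN (0.0454) passed, and the list genes called lower numbered 23. Replicate numbers are shared between the groups, but the labels do not say that same-numbered libraries were paired. The correlation of their deviations across transcripts was 0.112 over 2 pairs, too few pairs to decide whether they were. The fit with the replicate block has fewer degrees of freedom, and low p-values from it and from fits without a library carry little weight. The cause of each change was not tested. TJP1, CDH2, OCLN and FN1 had under 100 counts in every library, each on 1 of 2 to 18 RefSeq mRNAs of its gene, and the effect of depth on their tests was not tested.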

Other observations

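Of 9 keratin genes with a row that no list held, both knockdown libraries lay below both control libraries for 4 (KRT3, KRT6B, KRT16 and KRT79), above them for 2 (KRT12 and KRT222), and the groups overlapped for 3 (KRT15, KRT40 and KRT83). Over all tested rows 30.3% lay below and 29.3% above. The 4 keratins that lay below were too low to be tested, so the first share comes from unlike rows. The genes with values given next were chosen after their values were seen. KRT16, a type I keratin of stressed epidermis like KRT17, had 11 and 9 counts in the controls and 1 and 1 in the knockdowns, KRT79 had 5 and 15 against 0 and 0, and KRT6B had 16 and 1 against 0 and 0. These rows and that of KRT3 were too low to be tested. KRT15, with 99 and 190 counts against 197 and 95, did not pass. KRT12 (18, 21, 46 and 26 counts) and KRT222 (473, 481, 579 and 688 counts) were higher in both knockdown libraries and did not pass (adjusted p = 0.329 and 0.209). Over all 19 keratin genes with a row, 13 were tested, 2 rose (KRT18 and KRT23), 2 fell (KRT7 and KRT17) and 9 did not pass. Beside 9.08% higher and 11.1% lower over all genes with 1 row per gene, these counts are near the background.

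The cadherin superfamily was counted by CDH, CDHR, PCDH, FAT, CELSR and DCHS names, which leaves out desmosomal cadherins such as DSG2. Among the 28 genes so named with a row, 23 were tested, 2 rose, 4 fell and 17 did not pass. Over all genes with 1 row per gene 9.08% were called higher and 11.1% lower, so these counts are near the background. The atypical cadherin gene FAT1 rose from 8508 and 7074 to 14361 and 11933 counts (0.75, adjusted p = 0.0112), a call that disappeared without control replicate 2 (adjusted p = 0.0672). CDHR4 fell from 177 and 140 to 34 and 24 counts (−2.45, adjusted p = 0.000897). PCDH10 had 30 and 68 counts against 4 and 2, PCDHB3 26 and 32 against 0 and 0, CDHR1 12 and 14 against 0 and 1, and CDH6 0 and 1 against 21 and 18. The CDH6 call disappeared without control replicate 1 (adjusted p = 0.0517), without knockdown replicate 1 (0.124) and likewise without knockdown replicate 2 (0.0703). Of 10 tested claudin genes CLDN3 was the 1 that was called. PECAM1, an adhesion molecule listed as an endothelial marker, had 234 and 163 counts against 427 and 383 (1.02, adjusted p = 0.0185, and 0.137 without control replicate 2), while VWF had 7, 9, 0 and 2 counts and CDH5 42, 16, 20 and 15.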
